A study of Homo sapiens with 5 samples.

Results

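Lysine acetylation of histones is written by acetyltransferases, removed by deacetylases and read by proteins with a bromodomain. The genes of these writers, erasers and readers were examined here for peaks of 1 such mark, acetylation of histone H2A at lysine 130 (H2A-K130ac). The set held 38 genes of the 20056 protein-coding genes of the reference, chosen by name and role. It comprised 4 class I deacetylases, 14 other deacetylases, 13 acetyltransferases including the NCOA coactivators, the scaffolds SIN3A and SIN3B, and 5 bromodomain readers. All 38 were looked up in the gene symbol column of the annotated peak tables.

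The data were H2A-K130ac ChIP-seq peak lists of C4-2B, an androgen-independent human prostate cancer cell line, with 1 library from cells given abiraterone and 1 from cells given Romidepsin. Abiraterone inhibits CYP17A1, an enzyme of androgen synthesis, and Romidepsin inhibits class I deacetylases, above all HDAC1 and HDAC2. The study asked which enzymes write and erase this mark, with KAT2A as the writer and HDAC1 and HDAC2 as the erasers in question, and where the mark lies when androgen synthesis is blocked. No untreated C4-2B library was used here, and neither the drug doses nor the exposure times of this experiment are given in the sources used here. The sample labels repeat the Romidepsin protocol of the VCaP cells, at 0.5 µM, and name the tumour as breast cancer, and the 3 VCaP samples were not analysed here. With 1 library per treatment no test between treatments was possible, so every value below describes these 2 libraries, and the exact 95% intervals cover counting error only.

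There were 67806 peaks under abiraterone and 91398 peaks under Romidepsin, so that 57.4% of all peaks were Romidepsin peaks. No read counts came with the peaks, and the depth behind each is unknown. Many peaks shared the same fold over the control. The 159 peaks assigned to the set in the Romidepsin table had 35 distinct folds at 2 decimals. Of them 43 had a fold of 2.61 and 24 had 2.58, which is 27.0% and 15.1%, against 28.3% and 17.0% of all peaks under Romidepsin. Of 7 prostate marker genes, 6 had an assigned peak under abiraterone and 3 under Romidepsin, and of 6 breast marker genes 5 and 6 had one. Of all protein-coding genes, 56.6% and 68.6% had one. Many of these peaks were distal intergenic. Outside that class lay 12 of 18 and 3 of 6 prostate marker peaks, and 25 of 95 and 34 of 113 breast marker peaks. FOLH1, a prostate surface antigen, had none in either table. Peaks of 1 mark are not expression, so these counts do not settle which tissue the label should name.

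Deacetylases of class I (HDAC1, HDAC2, HDAC3 and HDAC8) are zinc-dependent nuclear enzymes, of which HDAC1 and HDAC2 work in complexes built on scaffolds such as SIN3A. Class IIa enzymes (HDAC4, HDAC5, HDAC7 and HDAC9) shuttle between nucleus and cytoplasm and have weak catalytic activity of their own, while sirtuins use NAD as a cosubstrate. Among the writers, KAT2A and its paralog KAT2B serve in SAGA-type complexes, the MYST enzymes include KAT5 to KAT8, and EP300 and CREBBP are large coactivators. NCOA1, NCOA2 and NCOA3 are coactivators of nuclear receptors, among them the androgen receptor.

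The upstream sequences of 4 genes are shown because peaks lay close to their starts in 1 of the treatments: SIN3A, HDAC2 and BRD2 under Romidepsin, and KAT2A under abiraterone. Each line gives the 200 bases before the RefSeq start on the gene's own strand in GRCh38.p14, with CG dinucleotides in capitals. The peaks are on another build, hg19, so the sequence is not placed against them by coordinate.
SIN3A: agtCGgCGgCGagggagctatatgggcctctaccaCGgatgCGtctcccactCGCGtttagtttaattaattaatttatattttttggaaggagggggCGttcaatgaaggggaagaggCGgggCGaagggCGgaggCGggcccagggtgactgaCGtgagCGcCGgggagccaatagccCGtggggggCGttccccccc
HDAC2: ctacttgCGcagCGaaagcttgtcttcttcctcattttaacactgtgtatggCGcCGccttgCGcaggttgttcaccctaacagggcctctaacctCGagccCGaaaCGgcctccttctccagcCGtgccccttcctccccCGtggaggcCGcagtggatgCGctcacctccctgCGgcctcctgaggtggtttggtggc
BRD2: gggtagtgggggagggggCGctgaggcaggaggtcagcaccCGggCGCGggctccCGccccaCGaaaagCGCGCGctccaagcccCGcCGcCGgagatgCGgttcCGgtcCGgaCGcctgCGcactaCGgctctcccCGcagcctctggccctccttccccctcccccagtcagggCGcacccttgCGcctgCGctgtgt
KAT2A: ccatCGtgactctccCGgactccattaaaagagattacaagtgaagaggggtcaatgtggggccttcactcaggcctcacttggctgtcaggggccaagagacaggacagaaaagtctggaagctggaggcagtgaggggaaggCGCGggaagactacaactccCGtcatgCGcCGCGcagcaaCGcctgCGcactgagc

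The 4 stretches hold 17 CG dinucleotides for SIN3A, 13 for HDAC2, 22 for BRD2 and 10 for KAT2A. Promoter sequences of 300 bases, from 250 before to 50 after the start, were matched for 33 of the 38 genes. Their median was 30 CG dinucleotides, and that of the 15843 protein-coding promoters was 22. The sterol regulatory element TCACNCCAC, read on both strands, occurred in 0 of the 33 promoters and in 1.17% of all protein-coding promoters. The E-box CACGTG, to which SREBF1 can also bind, occurred in 2 of them, those of SIRT1 and KAT5, and in 8.88% of all.

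Most genes of the set had at least 1 peak in each library. A peak is assigned by the authors' annotation to the gene with the nearest transcription start, whatever the distance. Under abiraterone 24 of 38 genes had an assigned peak (63.2%, exact binomial interval 46.0 to 78.2%), beside 56.6% of all protein-coding genes. Under Romidepsin 27 did (71.1%, 54.1 to 84.6%), beside 68.6%. Both intervals hold the background share, so the set as a whole stood close to other genes in either library.

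Both tables assigned a peak to 20 of the genes (52.6%, against 48.9% of all protein-coding genes). Neither table did so for 7 (18.4%, against 23.7%): HDAC10, SIRT2, SIRT6, SIRT7, HAT1, KAT8 and EP300. EP300, the p300 acetyltransferase, thus had no assigned peak in either library while its paralog CREBBP had 7 under abiraterone and 9 under Romidepsin. The 7 genes have no length in the tables and are left out of values per length, which rest on the other 31. HAT1, a cytoplasmic type B acetyltransferase, did carry 1 abiraterone peak in its intron 7, which was assigned to METAP1D. The peaks per gene, by treatment and by position inside or outside genes, show how uneven the set was.

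**Figure D1:**
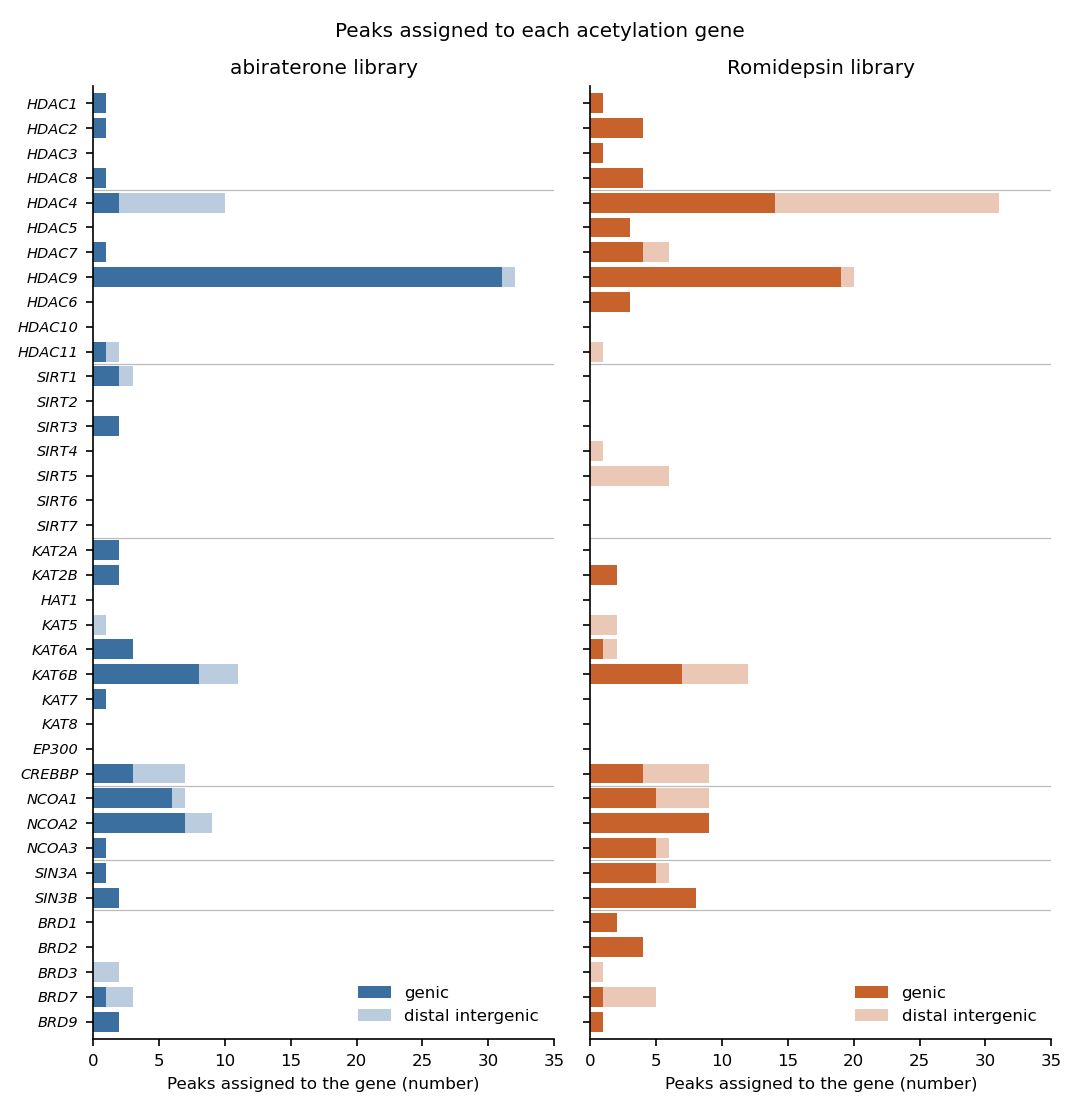
Peaks assigned to each of the 38 genes in the abiraterone library (left) and the Romidepsin library (right). Bars give the number of peaks, dark for genic peaks (any class but distal intergenic, in this gene or another) and pale for distal intergenic ones, with grey lines between gene classes. HDAC9 reaches 32 peaks under abiraterone and HDAC4 31 under Romidepsin, while 7 genes have none in either library.

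In all, 107 abiraterone peaks (exact Poisson interval 87.7 to 129) and 159 Romidepsin peaks (135 to 186) were assigned to the set. Romidepsin peaks made up 59.8% of them (53.6 to 65.7%), an interval that includes the 57.4% of all peaks. Among peaks with a q of at most 0.05 the share was 22.1%, where the whole lists held 60503 abiraterone and 11546 Romidepsin peaks. The most peaks were assigned to long genes, though not all of them lay inside: under abiraterone HDAC9 had 32, KAT6B 11, HDAC4 10 and NCOA2 9, and under Romidepsin HDAC4 had 31, HDAC9 20 and KAT6B 12. Introns took 61.7% of the abiraterone peaks of the set and 47.8% of its Romidepsin peaks, against 39.6% and 37.9% of all peaks. Distal intergenic peaks were 24.3% and 32.7%, against 48.4% and 48.0%. Genic peaks, meaning every class but distal intergenic, numbered 81 and 107. They fell to 22 genes in each library (57.9%), against 46.0% of all protein-coding genes under abiraterone and 57.3% under Romidepsin.

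Class I deacetylases, the targets of Romidepsin, had few peaks under abiraterone and more under Romidepsin. Their 4 genes span 329 kb in sum and were assigned 3 abiraterone peaks and 10 Romidepsin peaks, all of them genic. That is 0.912 genic peaks per 100 kb (exact Poisson interval 0.188 to 2.66) under abiraterone and 3.04 (1.46 to 5.59) under Romidepsin, and the intervals overlap. Among peaks with a q of at most 0.05 the order turned, to 0.608 under abiraterone and 0.304 under Romidepsin. Romidepsin peaks were 76.9% of the 13 (46.2 to 95%). Counting instead the peaks whose exon, intron or promoter label names the gene itself, a count chosen after the data were seen, gave 4 and 18 peaks, 3 and 10 of them at HDAC8, with 81.8% from Romidepsin (59.7 to 94.8%), an interval that lies above 57.4%. That interval also holds 69.3%, the Romidepsin share of all peaks on chromosome X, where HDAC8 lies. Counting every peak within the outermost limits of the 4 genes gave 5 and 18.

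HDAC2 carried peaks just inside its start in the Romidepsin library only. The gene (chr6:114257320-114292359) was assigned 1 abiraterone and 4 Romidepsin peaks. Of the latter, chr6:114290708-114290898 lay 990 bp from a start, at 4.30-fold over the control and a −log10 q of 1.96, and chr6:114291081-114291205 lay 683 bp from it, with a fold of 2.58. The third, chr6:114281001-114281322, carried a 5′ UTR label at 10566 bp. The remaining Romidepsin peak and the only abiraterone peak lay upstream, at 10.6 kb and 28.9 kb from the gene, in introns of a transcript without a gene name, so that inside HDAC2 the counts by label were 0 and 3. The 4 genic Romidepsin peaks were more than 86.7% of 2030 genes of similar length had, whose median was 1. Lengths from 20% below to 25% above that of the gene counted as similar here.

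HDAC1 (chr1:32757993-32799224) was assigned 1 peak in each library, both inside the gene. The assigned abiraterone peak lay in intron 2, and the Romidepsin peak at chr1:32795820-32795944 was a promoter peak only of an inner start, 37.8 kb into the gene. A further abiraterone peak within its limits, chr1:32798717-32799067, was assigned as a promoter peak to MARCKSL1. Genes of similar length had a median of 1 genic peak under abiraterone and 2 under Romidepsin.

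HDAC3, the catalytic subunit of nuclear receptor corepressor complexes, was assigned 0 abiraterone peaks and 1 Romidepsin peak, in exon 6 of 13. A further 3 Romidepsin peaks labelled HDAC3 were assigned to the neighbouring DIAPH1. Among these was chr5:141004303-141005160 in exon 12, of 858 bp, at 5.16-fold and a −log10 q of 2.86, place 1300 of the table by fold with ties. By its own label HDAC3 therefore had 0 and 4 peaks.

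HDAC8, an X-linked class I enzyme, was assigned 1 abiraterone and 4 Romidepsin peaks, fewer than the medians of 5 and 6 for genes of similar length. Its promoter peak under Romidepsin, chrX:71793532-71794180, lay 579 bp upstream of the start, and that under abiraterone, chrX:71785254-71785603, lay by an inner start 7.35 kb into the gene. By its own label it had 3 and 10 peaks, since 2 and 6 more in intron 6 were assigned to CITED1. Romidepsin peaks made up 69.3% of all peaks on chromosome X, and the part of that excess in the HDAC8 count was not tested.

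Within class IIa the longest genes had their peaks in opposite balance when all peaks were counted, HDAC9 with more under abiraterone and HDAC4 with more under Romidepsin. Strong peaks did not share this contrast. Where −log10 q reached 2, HDAC4 was assigned 1 abiraterone and 0 Romidepsin peaks, and HDAC9 6 and 1. The class was assigned 43 abiraterone and 60 Romidepsin peaks, of which Romidepsin held 58.3% (48.1 to 67.9%). HDAC9 was assigned 32 abiraterone peaks and 20 Romidepsin peaks, and HDAC4 10 and 31. The Romidepsin share was thus 38.5% for HDAC9 and 75.6% for HDAC4, where the whole of chromosome 7 had 50.3% and the whole of chromosome 2 had 63.8%.

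HDAC9 (chr7:18126572-19036992) is the longest gene of the set, and its genic peaks numbered 31 under abiraterone and 19 under Romidepsin. The 189 genes of similar length had medians of 11 and 12. HDAC9 exceeded 98.9% of them under abiraterone and 77.3% under Romidepsin. That match used its longest single transcript, 582 kb, while its peaks were counted over transcripts that span 910 kb. Beside 93 genes of similar span, a match added after the data were seen, the medians were 18 and 16, and HDAC9 exceeded 88.2% and 57.0% of them. Its genic peaks ran from 31.8 to 827 kb into the gene under abiraterone and from 22.6 to 863 kb under Romidepsin, without a cluster at the outermost start. Those at −log10 q of at least 2 were 6 under abiraterone and 1 under Romidepsin, the latter at chr7:18344749-18345087 in intron 2 with a fold of 5.16. HDAC9 is also where the lists met: chr7:18440396-18440681 in intron 2 shared 286 bp with a Romidepsin peak, and chr7:18617788-18618056 in intron 4 shared 115 bp.

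HDAC4 (chr2:239969864-240323346) had 2 genic abiraterone peaks against 14 genic Romidepsin peaks, with a median of 7 and 8 for 431 genes of similar length. The contrast was smaller by other counts. Peaks with the gene's own label were 6 and 18, because 4 abiraterone intron peaks had been assigned to MGC16025 and MIR4269. Peaks inside its limits were 9 and 18. Upstream of the start, up to 174.7 kb away, lay 8 abiraterone and 17 Romidepsin distal peaks, and 10 of the latter stood between 49.1 and 79.7 kb. The single site of overlap was distal, at chr2:240494189-240494558, where 370 bp were shared. The positions of these peaks along the gene, and those of the other long genes, were spread over the whole length.

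**Figure D2:**
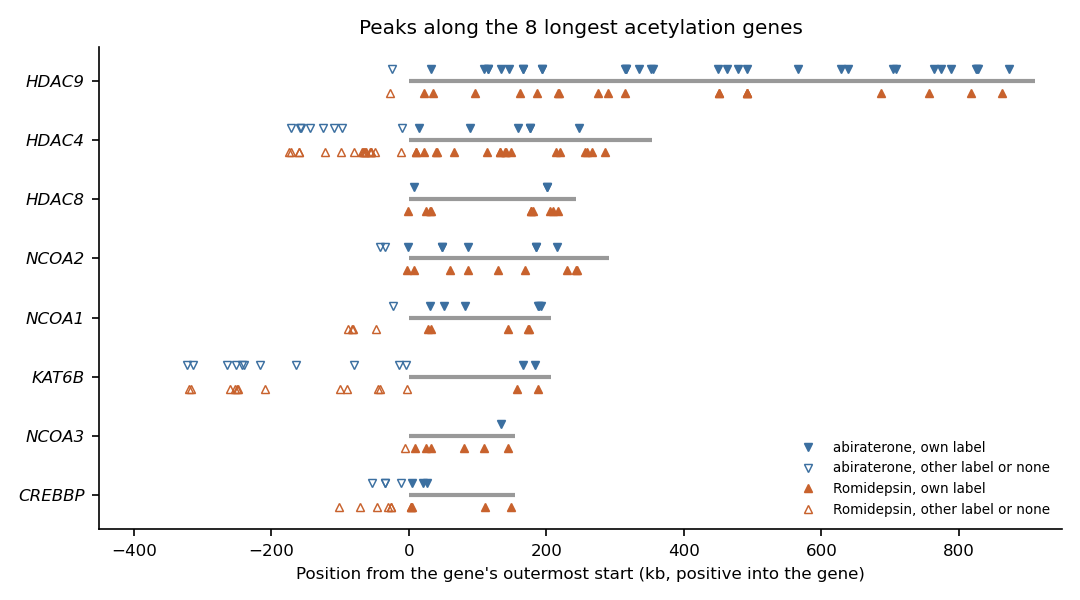
Positions of peaks along the 8 longest genes of the set, measured in kb from the gene's outermost start and positive into the gene. Grey bars mark the gene, downward blue triangles abiraterone peaks and upward orange triangles Romidepsin peaks, filled where the label names the gene and open otherwise. HDAC4 has 17 Romidepsin and 8 abiraterone peaks upstream of its start, and the 8 abiraterone and 7 Romidepsin peaks assigned to KAT6B as genic are open triangles far upstream of it.

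HDAC5 had 0 abiraterone and 3 Romidepsin peaks, and HDAC7 had 1 and 6. Their promoter peaks under Romidepsin, 1 each, lay at inner starts 34.5 and 17.7 kb into the gene. HDAC6, a class IIb enzyme that deacetylates tubulin, had 0 and 3, of which chrX:48661686-48662251 lay 499 bp inside its start. At 13.5 genic Romidepsin peaks per 100 kb HDAC6 was among the 5 densest genes of the set, together with HDAC2 at 11.4 and HDAC7 at 10.7. The only abiraterone peak of HDAC7 and 1 of its 4 genic Romidepsin peaks lay in introns of VDR upstream. HDAC11, the class IV enzyme, had 2 and 1.

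By assignment, no sirtuin had peaks in both libraries, where 48.9% of all protein-coding genes did. Only 4 of the 7 sirtuins had an assigned peak at all, so no contrast between the libraries is read from this. Of 7 genes, 2 had an assigned peak in each library, SIRT1 and SIRT3 under abiraterone and SIRT4 and SIRT5 under Romidepsin, beside 56.6% and 68.6% of all protein-coding genes. Genes as long as SIRT1 and SIRT5 had a median of 1 genic peak in each library, and genes as long as SIRT3 and SIRT4 of 0 under abiraterone and 1 under Romidepsin. SIRT1, a nuclear deacetylase, had 3 abiraterone peaks, of which chr10:69621646-69621885, 22542 bp upstream, reached 4.72-fold and a −log10 q of 3.80. SIRT3, a mitochondrial deacetylase, had a promoter peak at chr11:237420-237584, 489 bp upstream of its start, with a −log10 q of 2.61. The 6 Romidepsin peaks of SIRT5 were all distal, from 7877 to 41442 bp upstream. By label the contrast held at neither SIRT3 nor SIRT5. At SIRT3, 3 Romidepsin peaks in its exon 6 and intron 5 were assigned to RIC8A, and SIRT5 had 1 intron peak in each library, both assigned to NOL7.

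The deacetylases outside class I, 14 genes of which 10 have a length, gave 3.37 genic peaks per 100 kb under abiraterone (2.40 to 4.61) and 3.72 under Romidepsin (2.69 to 5.01). HDAC9 decided the first of these values, which was 1.39 without it. Both values are above the 0.912 of class I, and 1.39 lies inside the class I interval of 0.188 to 2.66. Under Romidepsin 3.04 and 3.72 lay well inside each other's intervals. The summed density of class I leans on HDAC8, which holds 239 of its 329 kb. By the median gene with a length, class I had 1.422 under abiraterone and 4.712 under Romidepsin, and the other deacetylases 1.625 and 1.633. HDAC10, SIRT2, SIRT6 and SIRT7, which had no assigned peak and no length, are left out of that median. Of all 14, 6 had a genic peak under abiraterone and 5 under Romidepsin, beside 46.0% and 57.3% of all protein-coding genes. Over all 14 the median gene would thus have no genic peak in either library. The order of the 2 classes under Romidepsin thus turned with the measure, as would that under abiraterone with all 14 genes counted.

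Acetyltransferases had the same density in both libraries, 2.53 genic peaks per 100 kb (1.74 to 3.55), from 33 peaks each over 10 genes and 1307 kb. Under abiraterone this was above the 0.912 of class I (0.188 to 2.66), and under Romidepsin below its 3.04 (1.46 to 5.59), with overlapping intervals in both libraries. The median of these 10 genes was 2.424 under abiraterone and 2.086 under Romidepsin. HAT1, KAT8 and EP300, which had no assigned peak and no length, are left out of it. With them counted as having no peaks, the middle gene would be CREBBP at 1.935 under abiraterone and KAT6A at 0.8163 under Romidepsin. Without KAT6B, whose genic peaks lay in ADK, the acetyltransferases had 2.27 under abiraterone. With the distal peaks they were assigned 44 abiraterone and 51 Romidepsin peaks, a Romidepsin share of 53.7% (43.2 to 64.0%). The class I deacetylases stood at 76.9%, with an interval that overlapped this one. By own label the shares were 50.8% (37.7 to 63.9%) and 81.8% (59.7 to 94.8%), which also overlapped.

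KAT2A (chr17:40265129-40273382), the GCN5 acetyltransferase, was assigned 2 abiraterone peaks and 0 Romidepsin peaks. Both abiraterone peaks lay inside the gene close to its start, chr17:40271249-40271373 at 2009 bp with a fold of 2.85 and chr17:40271527-40271652 at 1730 bp with a fold of 2.69. In a gene of 8.25 kb they made 24.2 peaks per 100 kb, the highest density of the set under abiraterone, and 83.7% of 1472 genes of similar length had fewer. A Romidepsin peak of low fold, 1.74, did lie within its limits, at chr17:40266365-40266587, and was assigned as a promoter peak to DHX58.

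KAT2B, the PCAF acetyltransferase, was assigned 2 intron peaks in each library. A further 2 abiraterone peaks in its intron 7 were assigned to SGO1-AS1. The genes of similar length had medians of 2 and 3.

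Of the MYST enzymes, KAT6B was assigned 11 abiraterone and 12 Romidepsin peaks, but hardly any lay in it. All 8 genic abiraterone peaks and all 7 genic Romidepsin peaks were in introns of ADK, the adenosine kinase gene upstream, at 164.4 to 321.9 kb from the KAT6B start. Peaks with the KAT6B label numbered 2 in each library, and these were assigned to DUSP29. KAT6A had 3 and 2 and KAT5, the TIP60 acetyltransferase, 1 and 2, all of the latter distal. The KAT5 abiraterone peak, 8902 bp upstream, had a −log10 q of 2.66. KAT7 had 1 and 0, its abiraterone peak being a promoter peak 2455 bp inside the start, chr17:47869264-47869614.

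CREBBP (chr16:3775056-3930121) had 3 genic abiraterone peaks and 4 genic Romidepsin peaks, beside medians of 3 and 4. Its 2 abiraterone peaks past a −log10 q of 2 were distal, 34.5 and 34.8 kb upstream. Under Romidepsin 3 of them gathered near the start, at 2816, 3936 and 4452 bp. NCOA1 had 6 and 5 genic peaks, among them a Romidepsin promoter peak of an inner start 174.9 kb into the gene, NCOA2 7 and 9, and NCOA3 1 and 5. Beside genes of similar length, whose medians were 4 and 5 for NCOA1, 6 and 7 for NCOA2 and 3 and 4 for NCOA3, these 3 coactivator genes were ordinary but for the low abiraterone count of NCOA3. That single peak, chr20:46264710-46265371 in exon 12 of 23, had the highest fold of any abiraterone peak of the set, 5.63, with a −log10 q of 5.16. At NCOA2 a promoter peak was present in each library, chr8:71316419-71316815 at 399 bp under abiraterone and chr8:71318514-71319102 at 2494 bp under Romidepsin, the latter at 5.92-fold and a −log10 q of 3.77. They were 1699 bp apart. In its intron 1 the lists shared 156 bp, at chr8:71229128-71229921.

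SIN3A and SIN3B, scaffolds that hold HDAC1 and HDAC2, were assigned 3 abiraterone peaks and 14 Romidepsin peaks, a Romidepsin share of 82.4% (56.6 to 96.2%) whose lower bound was just under the 57.4% of all peaks. Genic peaks per 100 kb were 2.18 (0.450 to 6.38) and 9.46 (5.04 to 16.2). At SIN3A (chr15:75661720-75748124) 4 of the 6 Romidepsin peaks were promoter peaks, and chr15:75747850-75748189 covered the outermost start itself. The only assigned abiraterone peak was 20402 bp inside the gene. At SIN3B (chr19:16940209-16991164) the Romidepsin peak chr19:16943093-16943327, 2884 bp inside the start, reached 7.84-fold and a −log10 q of 6.77, both the highest of the set, and ranked at place 11 of its table by fold. SIN3B had 8 genic Romidepsin peaks, more than 97.0% of 1826 genes of similar length. Of these, 2 lay in NWD1 and 6 in SIN3B by label, and its 2 abiraterone peaks were 3′ UTR peaks upstream of its start and so not its own.

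The bromodomain readers were assigned 7 abiraterone and 13 Romidepsin peaks, 65.0% from Romidepsin (40.8 to 84.6%). BRD2, a BET protein that binds acetylated histone H4, had 0 abiraterone and 4 Romidepsin peaks. Its peak chr6:32935159-32935717 lay 720 bp upstream of the start at 4.30-fold, and the others were a promoter peak of an inner start and peaks in exons 10 and 11. At 31.1 per 100 kb it had the highest density of the set under Romidepsin, and 92.1% of genes of similar length had fewer peaks. BRD1 had 0 and 2, BRD3 2 and 1, BRD7 3 and 5, and BRD9, a subunit of a SWI/SNF complex, 2 and 1. BRD7 and BRD9 each had a Romidepsin peak within 1 kb of the start, at 948 and 573 bp.

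**Figure D3:**
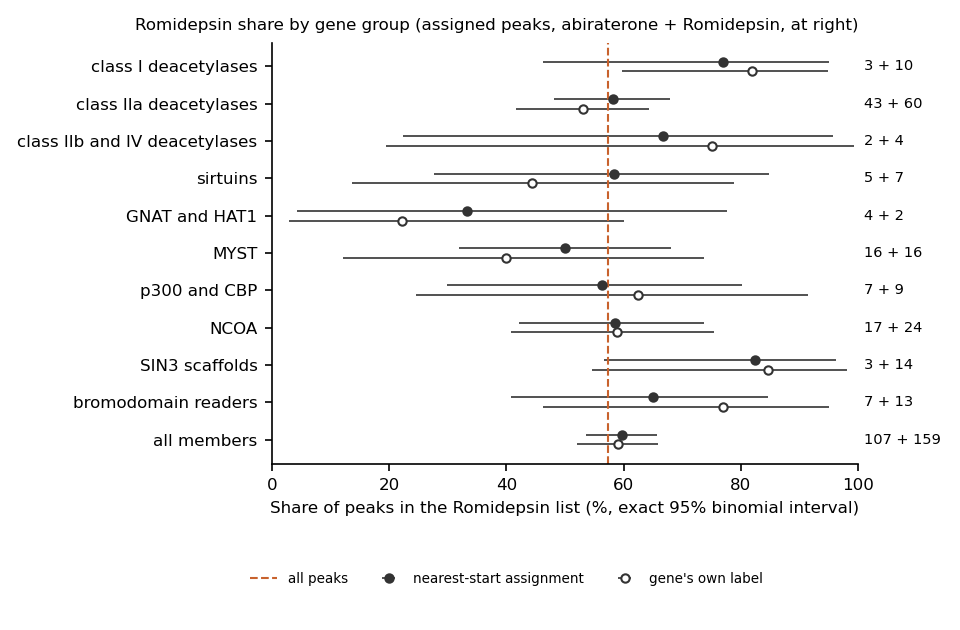
Share of peaks that came from the Romidepsin list, in percent, for each class of the set, with exact 95% binomial intervals. Filled points use the authors' assignment to the nearest start, open points the gene's own label, numbers at the right give assigned peaks of abiraterone and Romidepsin, and the dashed line marks the 57.4% of all peaks. The interval of the class I deacetylases by own label lies above the line, those of the SIN3 scaffolds reach it, and the other classes span it. The own-label count was chosen after the data were seen. Of its 18 class I Romidepsin peaks 10 are at HDAC8, on chromosome X, where Romidepsin held 69.3% of all peaks, a share inside that interval.

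Promoter peaks, within 3 kb of any annotated start, were found at more genes of the set under Romidepsin than under abiraterone. Under abiraterone 8 genes had one (21.1%, 9.55 to 37.3%), against 17.0% of all protein-coding genes: HDAC8, HDAC4, HDAC9, SIRT3, KAT2A, KAT7, NCOA2 and BRD9. Under Romidepsin 15 had one (39.5%, 24 to 56.6%), against 26.0%: HDAC1, HDAC2, HDAC8, HDAC4, HDAC5, HDAC7, HDAC6, CREBBP, NCOA1, NCOA2, SIN3A, SIN3B, BRD2, BRD7 and BRD9. HDAC8, HDAC4, NCOA2 and BRD9 were in both, and the share of all protein-coding genes in both was not computed. The peaks themselves numbered 11 and 23, or 10.3% (5.24 to 17.7%) and 14.5% (9.40 to 20.9%) of the set's peaks, against 7.58% and 8.85% of all peaks. The second interval lies above its background, with 4 of the 23 peaks at SIN3A alone. The set also had fewer distal intergenic peaks under Romidepsin, 32.7% against 48.0% of all peaks, which raises the share of every other class. How far this accounts for the promoter share was not tested. Of these promoter peaks 67.6% were from Romidepsin (49.5 to 82.6%), against 61.1% of all promoter peaks.

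Many of these starts are inner ones. Within 3 kb of the outermost start of a gene lay 5 of the 11 abiraterone and 14 of the 23 Romidepsin promoter peaks. Those genes were SIRT3, KAT2A, KAT7 and NCOA2 under abiraterone, and HDAC2, HDAC8, HDAC6, CREBBP, NCOA2, SIN3A, SIN3B, BRD2, BRD7 and BRD9 under Romidepsin. The plot of distances from the outermost start shows these peaks, with more orange points than blue ones near 0. No share over all genes or peaks was computed for outermost starts. Of all promoter peaks, 61.1% were Romidepsin peaks.

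**Figure D4:**
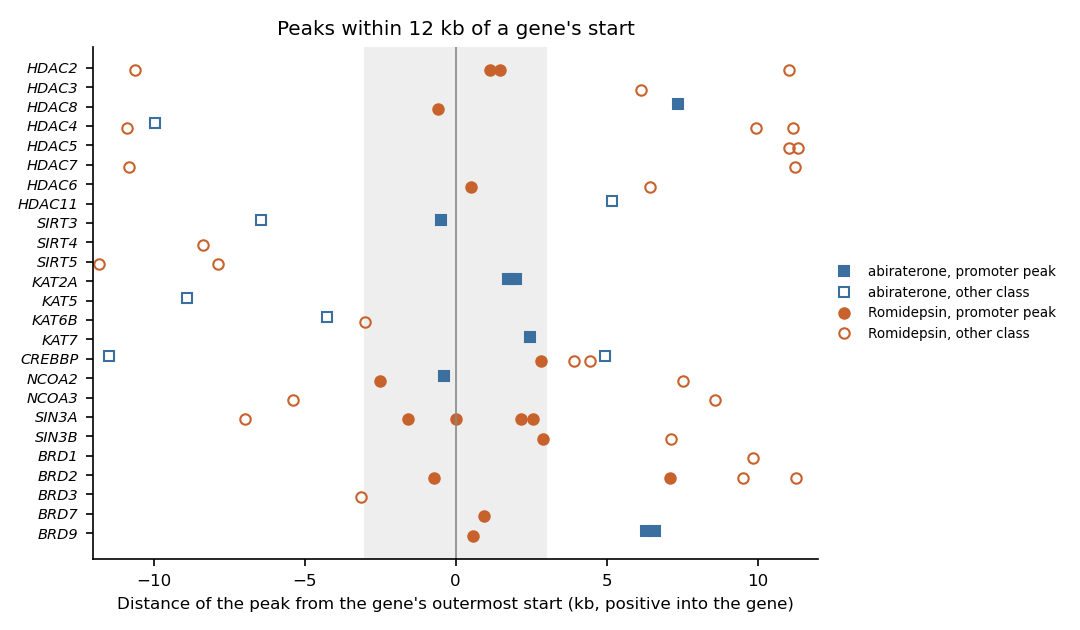
Assigned peaks within 12 kb of a gene's outermost start, by distance in kb, positive into the gene, for the genes of the set that have any. Blue squares are abiraterone peaks and orange circles Romidepsin peaks, filled for promoter peaks, and the grey band marks 3 kb to either side. Inside the band the filled points are 5 abiraterone peaks at 4 genes and 14 Romidepsin peaks at 10 genes.

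Strong peaks had the opposite balance, as they did in the lists as a whole. A −log10 q of at least 2 was reached by 24.9% of all abiraterone peaks and by 2.73% of all Romidepsin peaks. At least 1 such peak was assigned to 10 genes of the set under abiraterone (26.3%), against 30.7% of all protein-coding genes, and to 3 under Romidepsin (7.89%), against 8.57%. The former were HDAC4, HDAC9, SIRT1, SIRT3, KAT5, KAT6B, CREBBP, NCOA1, NCOA2 and NCOA3, and the latter HDAC9, NCOA2 and SIN3B. The abiraterone peaks concerned were 24, and the Romidepsin peaks 3. No class I gene was among them by assignment, and the HDAC3 exon 12 peak assigned to DIAPH1 was the only peak labelled with a class I gene at this level. Folds were not compared between the libraries, which were not normalised to each other.

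Set beside genes of similar length, the set showed no common direction. Of the 31 genes with a length, 9 lay above, 13 at and 9 below the median of genes of similar length under abiraterone, and 12, 5 and 14 under Romidepsin. A genic peak was assigned to 71.0% of the 31 in both libraries, against 69.2% of the genes of similar length under abiraterone and 81.2% under Romidepsin. Genes listed with a length have a peak in at least 1 table, so genes without any are missing on both sides. Over the whole set, genic peaks per 100 kb were 2.61 under abiraterone and 3.45 under Romidepsin. In the plot of peaks against length, which uses the longest transcript, HDAC9 stands at the upper edge under abiraterone, and HDAC4 lies below the median there and above it under Romidepsin.

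**Figure D5:**
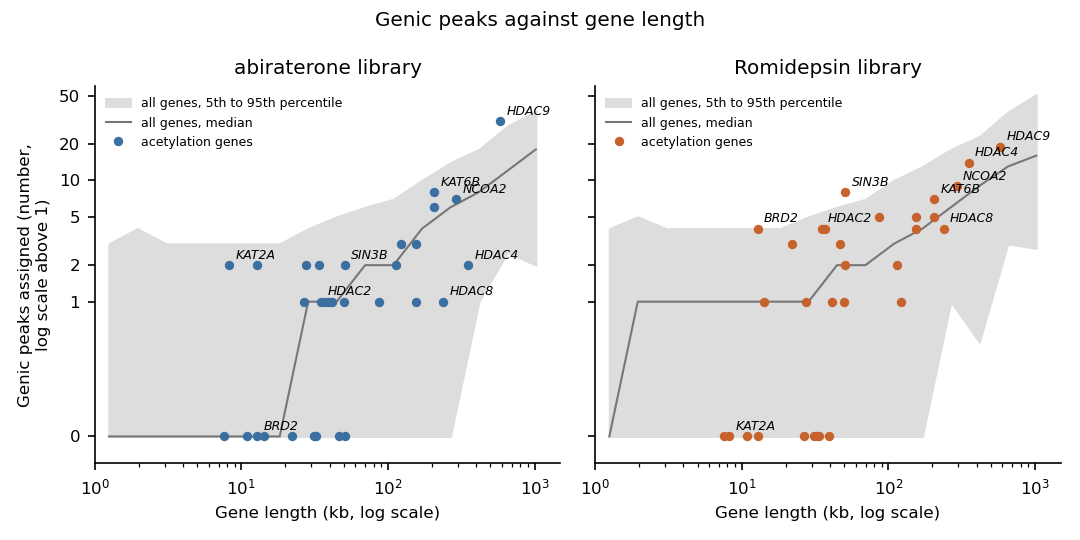
Genic peaks assigned to a gene against the length of its longest transcript in kb (log axis), for abiraterone (left) and Romidepsin (right), on a vertical axis that is linear up to 1 and logarithmic above. Coloured points are the 31 genes of the set with a length, the grey line is the median and the grey band the 5th to 95th percentile of all genes in the tables, by length bin. HDAC9 with 31 abiraterone peaks lies above the band and SIN3B with 8 Romidepsin peaks above it too, and most other genes lie within.

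Peaks of the 2 libraries rarely met in the set. Of 107 abiraterone peaks 4 overlapped a Romidepsin peak (3.74%, 1.03 to 9.30%), and 4 of 159 the other way (2.52%), against 4.04% and 2.90% of all peaks. These were the 4 sites named above in HDAC4, HDAC9 and NCOA2.

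The assignment by nearest start mattered for single genes. Among peaks of the set with an exon or intron label, 10 of 66 abiraterone peaks (15.2%) and 12 of 82 Romidepsin peaks (14.6%) carried the label of another gene, against 23.2% and 25.2% of all such peaks.

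Genes that work with the set were looked at beside it. Of 27 subunits and partners of deacetylase complexes, 15 had an assigned peak under abiraterone (55.6%) and 22 under Romidepsin (81.5%), with 105 and 114 peaks, where all protein-coding genes had 56.6% and 68.6%. The same background applies to the lists that follow. TBL1XR1 had 11 genic peaks and TBL1X 7 under abiraterone, and TBL1X had 15 and NCOR1 6 under Romidepsin, all subunits of nuclear receptor corepressor complexes. Of 38 partners of acetyltransferases, 24 (63.2%) and 29 (76.3%) had a peak, with 102 and 113 peaks. Under abiraterone SUPT3H and EPC1 had 9 genic peaks each and ATXN7 and ZZZ3 8 each. Under Romidepsin SUPT3H had 12, JADE1 9, and ZZZ3 and JADE2 6 each. SUPT3H and ATXN7 belong to SAGA, the complex of KAT2A. Of 29 other bromodomain genes, 19 (65.5%) and 26 (89.7%) had a peak, with 80 and 138 peaks, a Romidepsin share of 63.3% (56.5 to 69.7%). BAZ2B led both lists with 9 and 10 genic peaks, followed by PHIP with 6 and TRIM24 with 5 under abiraterone, and by ZMYND8 with 7 and SMARCA2 and TRIM24 with 6 each under Romidepsin. The counts and shares of these lists were not set beside genes of similar length. Among the named genes SUPT3H is 551 kb long, BAZ2B 298 kb and TBL1X 256 kb, while JADE1 has 55.0 kb and NCOR1 50.0 kb.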

How the data were processed

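H2A-K130ac ChIP-seq had been aligned with Bowtie 2, and peaks had been called with MACS2 by the authors. Their Reporting Summary gives broad peaks, vehicle as control and duplicates, whereas the C4-2B lists are narrow peaks, and whether duplicates were pooled is not stated. The score of each peak, its fold over the control, and its −log10 p- and q-values were computed by the authors' peak caller and deposited. They served only to describe or filter peaks. The labels name hg38, but a peak on chromosome 1 ends at 249191832, past that chromosome's end in GRCh38, and transcripts carry UCSC hg19 identifiers, so positions were read as hg19. The annotated tables had lost their first peak as a header (67807 and 91399 peaks in the lists), and conservative and optimal tables were identical. The tool behind the annotation is not given in the sources used here.

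Peaks were counted by assigned gene, class and largest transcript length, with exact Poisson and binomial intervals (95%). Close neighbours, as at KAT2A, HDAC8 and HDAC9, were counted singly, and the intervals treat all peaks as independent. Gene limits are the outermost transcripts nearest to some peak. The RefSeq table of GRCh38.p14 served only for names (18316 of 18406 gene identifiers matched). Counting was tested on simulated data. Named with values were HDAC1, HDAC2, HDAC3, HDAC8, KAT2A, KAT2B, EP300 and CREBBP, the 5 genes with most peaks and most genic peaks per length, and every gene with a promoter peak, no peak, a −log10 q of at least 2 or an overlap, and of the partner lists the 3 genes with most genic peaks, ties included. Some genes of this rule are not reported here. Genes and lists were chosen with earlier results of these data known. Alternatives were stricter q-values, other gene limits, lengths, windows and classes, and peaks by own label. Python 3.11.15, numpy 2.4.6, pandas 2.3.3, scipy 1.17.1 and matplotlib 3.10.9 were used.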

Additional observations from a re-analysis of the deposited data

How the results depend on the processing

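Of 95 alternatives for 13 results, 73 stayed within the spread of counting error or within 1.5 times the count. The other 22 came from fewer or more peaks counted, or from leaving out HDAC9. With a −log10 q of at least 2, genes of the set with a peak fell to 10 under abiraterone and 3 under Romidepsin, peaks to 24 and 3, and the Romidepsin share to 11.1%. Genic peaks per 100 kb were then 0 and 0 for class I deacetylases, 0.779 and 0.0865 for other deacetylases, and 0.612 and 0.0765 for acetyltransferases, and genes above the median of similar length 4 and 3. With a q of at most 0.05, the Romidepsin values were 14 genes, 25 peaks, a share of 22.1%, and 0.304, 0.519 and 0.536 per 100 kb for the same classes. This cutoff kept 15.7% of the set's Romidepsin peaks and 12.6% of all, and 82.2% and 89.2% under abiraterone. The share of all protein-coding genes with such a peak was not computed. Class I had 0.608 under abiraterone there, so its order between the libraries turned. Without HDAC9, other deacetylases had 1.39 under abiraterone. Counting distal peaks too gave 6.14 for other deacetylases and 3.90 for acetyltransferases under Romidepsin. The alternative of peaks by own label was chosen after seeing the data and by this rule moved none of the 11 results it was applied to. It did raise the class I density under Romidepsin from 3.04 to 5.47 per 100 kb. That is above the 4.325 of other deacetylases by own label, whereas the main count gave them 3.72. The Romidepsin share of class I was not among the 13 results. Its interval lay above the share of all peaks by own label and not by assignment, and by own label it held the 69.3% of chromosome X, where HDAC8 lies. No paired analysis was possible because there is 1 library per treatment. Without read counts the depth behind a peak is unknown, most Romidepsin peaks carry a q above 0.05, and the excess of Romidepsin peaks holds only when these are counted.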
